A study of Mus musculus with 2 samples.

Results

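Mir132 and Mir212 are neighbouring microRNA genes of mouse chromosome 11. They were taken from the count tables by their GENCODE M21 gene names, which gave 2 genes of the 2202 microRNA genes listed. MicroRNA-seq libraries were made from 2 mice of the strain B6CASTF1/J, both females, 36 days old, with the left cerebral cortex as the tissue. It is a hybrid strain whose cells carry 1 chromosome set of each parent strain. The labels number the mice as separate biological replicates and animals under a shared donor code. They name no treatment, so the mice form 1 group, and the only comparison possible was mouse 2 (replicate 2) with mouse 1 (replicate 1). Each mouse gave 1 library, so an animal's difference and a library's difference cannot be told apart.

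A microRNA gene is transcribed as part of a longer RNA that folds into a hairpin. Enzymes cut from its arms (5p and 3p) mature strands, and bases 2 to 8 of a mature strand, the seed, pair with target messenger RNAs. Mir132 and Mir212 are known as neuronal genes whose shared primary transcript is raised through the transcription factor CREB when neurons are active. A known target of miR-132 is the messenger RNA of the GTPase-activating protein p250GAP, which restrains dendrite growth.

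The mature strands below show what both genes have in common and where they part; the sequences are from RefSeq (GRCm38.p6), in which both genes matched by symbol, and capitals mark the seed. The miR-132-3p strand lies at chr11:75173723-75173744, miR-212-3p at chr11:75173443-75173464, miR-132-5p at chr11:75173686-75173707 and miR-212-5p at chr11:75173403-75173425, all on the plus strand.
miR-132-3p: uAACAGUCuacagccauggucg
miR-212-3p: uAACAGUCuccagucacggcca
miR-132-5p: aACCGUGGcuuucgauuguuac
miR-212-5p: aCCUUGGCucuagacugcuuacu

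The 3p strands of both genes have the seed AACAGUC, and of the 1679 mature mouse microRNAs in the table these 2 were the only ones with it. Over 22 bases, counted from 1 at the 5′ end, they were identical at 17. The differences from miR-132-3p to miR-212-3p were A10C, C14U, U17C, U20C and G22A, all downstream of the seed. The 5p strands were identical at 9 of 22 bases, had the seeds ACCGUGG and CCUUGGC, and shared these seeds with no other mature strand in the table. The deposited counts are per gene, so they do not say which arm was read.

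The hairpins below carry those strands in capitals.
Mir132: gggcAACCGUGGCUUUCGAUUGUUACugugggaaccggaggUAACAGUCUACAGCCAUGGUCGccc
Mir212: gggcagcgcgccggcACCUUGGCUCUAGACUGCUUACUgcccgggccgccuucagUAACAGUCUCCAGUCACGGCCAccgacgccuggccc

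The Mir132 hairpin (ENSMUSG00000065537.2, chr11:75173682-75173747) has 66 bases, of which 57.6% are G or C. The Mir212 hairpin (ENSMUSG00000065590.1, chr11:75173388-75173478) is longer, at 91 bases, and richer in G and C, at 69.2%. Their predicted folding energies were -37.2 kcal/mol for Mir132 and -41.5 kcal/mol for Mir212. The longest run of bases that both hairpins share has 10 bases. Against the 1004 other hairpins of the table, the longest shared run was 10 bases for Mir132 and 11 bases for Mir212. None of the 4 whole mature sequences stood in an annotated transcript of any other gene, on either strand. A run of 16 bases of miR-212-5p stood in Tjap1 and one of miR-212-3p in Pole3, but none of the miR-132 strands in another gene. Reads that fitted several places in the genome were given to no gene by the authors' counting. Such reads were 51.2% of mapped reads in mouse 2 and 50.9% in mouse 1, and how many came from these hairpins was not tested.

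On the mm10 assembly both hairpins lie in the first intron of the non-coding gene 1700016P03Rik, on its strand. The intron is 1380 bases long, Mir212 starts 790 bases after exon 1, and 203 bases separate it from Mir132, which ends 230 bases before exon 2. The nearest protein-coding genes lie on the opposite strand. Ovca2 is 2194 bases downstream of Mir132 and overlaps the host gene, and Hic1, a transcriptional repressor gene, is 3868 bases upstream of Mir212. The count tables list microRNA genes, so the host transcript was not measured here.

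**Figure D1:**
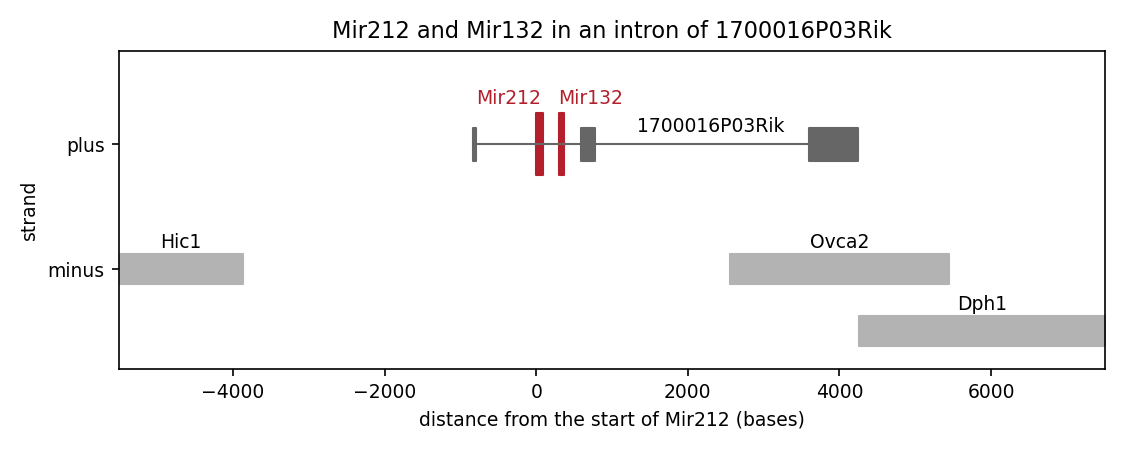
Map of the locus by distance in bases from the start of Mir212, with the plus strand above the minus strand. Red boxes are the hairpins, dark boxes the exons of 1700016P03Rik joined by its introns, and light boxes the neighbouring genes, clipped at the edges; both hairpins lie between exons 1 and 2, with 203 bases between them.

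By the reads assigned to a gene, Mir132 was among the most abundant microRNA genes of both cortices, while Mir212 was read far less. Mir132 had 120890 sense counts in mouse 2 and 57702 in mouse 1. Scaled as counts per 1000000 (CPM) to the sense counts of all microRNA genes (1863876 in mouse 2 and 1930234 in mouse 1), these were 64860 CPM in mouse 2, against 29894 CPM in mouse 1, a mean of 47377 ± 24725 CPM (SD, n = 2). Mir132 was thus the third gene in mouse 2 and the ninth in mouse 1 by assigned reads. Reads that fitted several places enter neither the ranks nor the sense totals. Genes with copies may therefore stand too low in this order, and shares hold for assigned reads only.

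Mir212 had 2288 sense counts in mouse 2 and 2058 in mouse 1. Its level was 1228 CPM in mouse 2, against 1066 CPM in mouse 1, a mean of 1147 ± 114 CPM (SD, n = 2). It stood at rank 97 in mouse 2 and rank 92 in mouse 1. The levels of the genes do not overlap, as the lowest Mir132 value lay far above the highest Mir212 value.

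The SD was 52.2% of the mean for Mir132 and 9.95% for Mir212. As a share of all sense counts, Mir132 held 6.49% in mouse 2 (95% Wilson interval 6.45% to 6.52%) and 2.99% in mouse 1 (2.97% to 3.01%). Mir212 held 0.123% in mouse 2 (0.118% to 0.128%) and 0.107% in mouse 1 (0.102% to 0.111%). These intervals cover counting error only, since each mouse gave 1 library. No molecular identifiers are named, so PCR copies count as reads and the intervals may be too narrow even for that error. Per base of the hairpin, the mean level was 718 CPM for Mir132 and 12.6 CPM for Mir212, which put them at ranks 4 and 99. On the opposite strand neither gene had a count in either mouse, which allows up to 3 counts each.

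**Figure D2:**
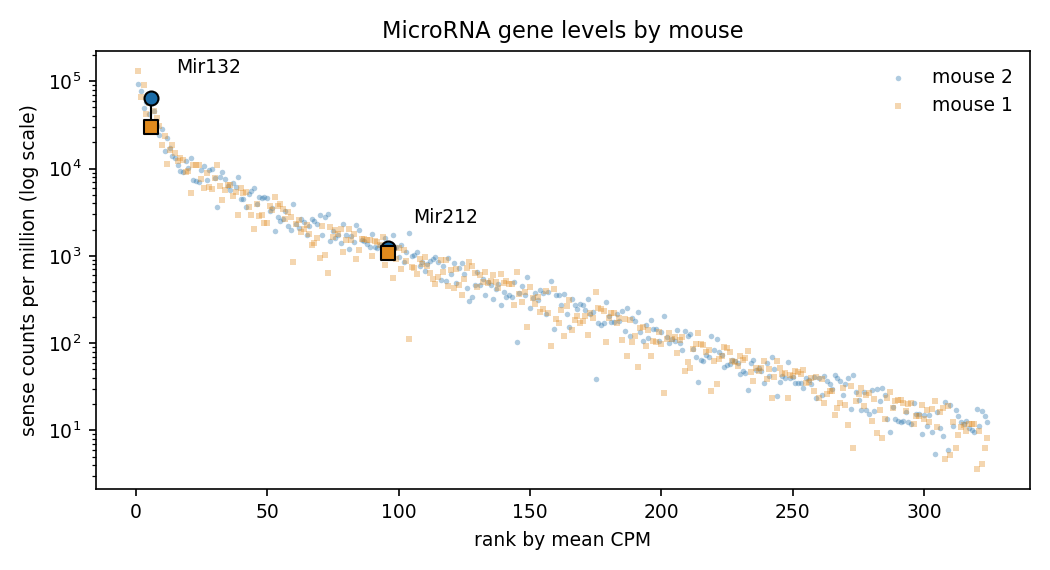
Sense CPM (log scale) of the 324 microRNA genes at a mean of 10 CPM or more, ordered by mean CPM, with mouse 2 as circles and mouse 1 as squares. Mir132, at 64860 CPM in mouse 2, against 29894 CPM in mouse 1, stands among the highest genes, and Mir212, at 1228 CPM in mouse 2 and 1066 in mouse 1, stands near rank 96.

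In the order of mean CPM, Mir132 came sixth, and its place among its neighbours was loose. Next above it were Mirlet7b (69419 ± 28805 CPM), Mir127 (50032 ± 11142 CPM) and Mir744 (48922 ± 9697 CPM). Next below were Mirlet7i (45522 ± 498 CPM), Mirlet7d (34273 ± 5461 CPM) and Mirlet7e (27398 ± 4737 CPM). Each of these 6 genes had CPM values that overlapped the range of Mir132 between the mice. Only 2 genes lay wholly above that range.

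Mir212 came at rank 96 of mean CPM. Mir760 (1322 ± 9.78 CPM), Mir1249 (1318 ± 462 CPM) and Mir140 (1192 ± 563 CPM) stood next above it, and Mir431 (1146 ± 59.7 CPM), Mir29c (1135 ± 821 CPM) and Mir872 (1098 ± 248 CPM) next below. Of these 6 genes, Mir760 was the only one whose CPM values did not overlap those of Mir212. In all, 21 other genes overlapped the range of Mir212, 83 lay wholly above it and 219 of the genes at a mean of 10 CPM or more lay wholly below it.

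Although the hairpins share a locus, they were read in different proportions in the mice. There were 52.8 Mir132 counts for each Mir212 count in mouse 2 (95% exact interval 50.7 to 55.1) and 28.0 in mouse 1 (26.8 to 29.3), a mean of 40.4 ± 17.5 (SD, n = 2). Per base of hairpin the ratios were 72.9 in mouse 2 and 38.7 in mouse 1. Mir212 was 1.86% of the pair's counts in mouse 2 and 3.44% in mouse 1. The odds ratio of Mir132 over Mir212, mouse 2 over mouse 1, was 1.88 (95% exact interval 1.77 to 2.00; two-sided Fisher's exact test, p = 1.21e-91). This value needs no scaling of the libraries, and the test compares the reads of 2 libraries, not conditions.

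The pair's proportions follow from Mir132 standing further apart between the mice than Mir212. With TMM library sizes, which correct for composition, Mir132 was 2.10-fold higher in mouse 2, a log2 ratio of mouse 2 over mouse 1 of 1.07 (95% counting interval 1.06 to 1.08). Mir212 had a log2 ratio of 0.16 (0.07 to 0.24), or 1.11-fold, with an adjusted p = 0.000674 by the exact binomial test (Benjamini-Hochberg over 324 genes). At an adjusted p under 0.05 and at least 2-fold, Mir132 was called and Mir212 was not.

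These ratios stand against a wide spread between the mice over all genes. Of the 324 genes, 63 (19.4%) passed the exact test and 2-fold, with 46 higher in mouse 2 (14.2%) and 17 higher in mouse 1 (5.25%), and 242 (74.7%) passed the exact test alone. The median difference of a gene, regardless of direction, was 0.53 on the log2 scale, or 1.44-fold, and the common biological coefficient of variation estimated by edgeR was 0.399. Mir132 lay above that median, and 56 genes (17.3%) lay further apart than it did. Mir212 lay well below the median, as 274 genes (84.6%) lay further apart.

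The difference of Mir132 stood out more among genes of its own level. Of the 102 genes at a mean of 1000 CPM or more, 14 were at least 2-fold apart and 11 lay further apart than Mir132. Of the 19 genes at 10000 CPM or more, Mir132 was the only one at least 2-fold apart. Their median difference was 0.46 on the log2 scale. With the linear trend of log2 ratios on hairpin G and C content removed, the log2 ratio was 1.12 for Mir132 and 0.47 for Mir212. Mir132 was then not the only gene at 10000 CPM or more past 2-fold. Mirlet7b moved from -0.92 to -1.01.

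**Figure D3:**
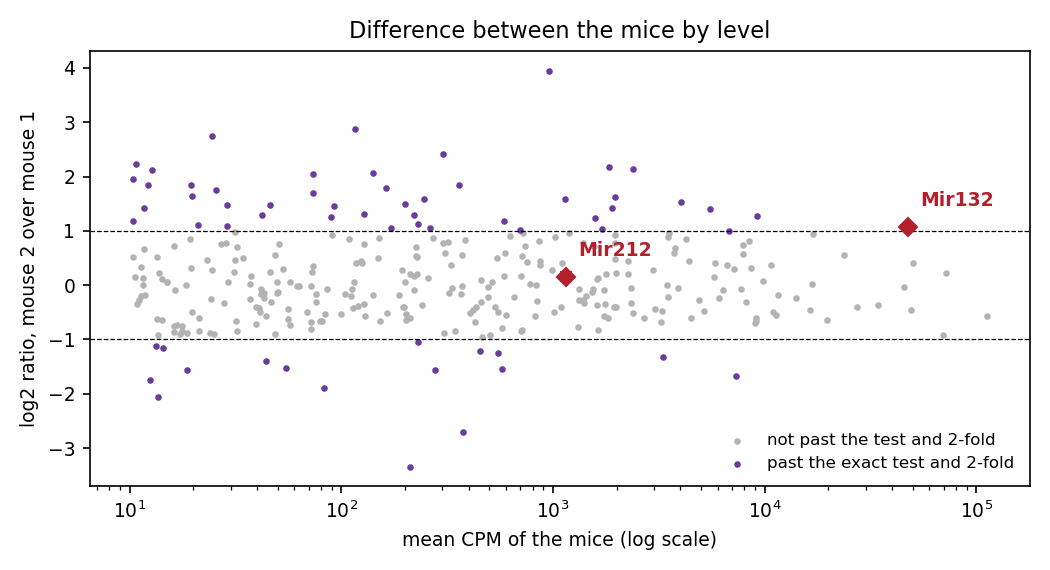
Log2 ratio of mouse 2 over mouse 1 against mean CPM (log scale) for the 324 genes at a mean of 10 CPM or more, with dashed lines at 2-fold. Purple points passed the exact test and 2-fold; the red diamonds are Mir132 at 1.07 and Mir212 at 0.16, with 95% counting intervals smaller than the symbols.

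The genes whose log2 ratio was most like that of Mir132, among those at a mean of 1000 CPM or more, were Mir27b (1.03), Mir143 (1.00), Mir369 (0.95), Mir140 (0.95) and Mir126a (0.94). With the trend on G and C content removed, Mir132 was at 1.12, while Mir27b was at 0.85 and no longer past 2-fold, Mir143 at 1.00, Mir140 at 0.89, Mir126a at 0.70 and Mir369 at 0.64. Mir143 is known from mural cells of vessels and Mir126a from endothelial cells. Most like Mir212 were Mir674 (0.14), Mir1839 (0.13), Mir129-2 (0.11), Mir181c (0.21) and Mir708 (0.21). With that trend removed Mir212 was at 0.47, while Mir674 was at 0.17, Mir181c at 0.27, Mir708 at 0.09 and Mir129-2 at 0.05, and Mir1839 turned to -0.30. This likeness is the closeness of a single log2 ratio over 2 libraries. None of these 10 genes lies on chromosome 11.

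The gap of 0.91 between the log2 ratios of Mir132 and Mir212 was set beside that of other neighbouring hairpins. There were 67 pairs that followed each other on the same strand within 10 kb among genes at a mean of 100 CPM or more. Their median gap was 0.64, against 0.74 for all 21321 pairs that the 207 genes at that level can form, and 16 of the 67 pairs (23.9%), Mir132 with Mir212 among them, had a gap at least as large as theirs. In 39 of the 67 pairs both genes differed in the same direction, as Mir132 and Mir212 did. The share in the same direction over all pairs was not determined, so nothing about neighbours is read from this count. With the trend on G and C content removed, the gap of Mir132 and Mir212 was 0.65, close to the median of 0.61, and 44.8% of pairs had a gap at least as large.

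The gap was widest for Mir296 and Mir298 (2.87), Mir410 and Mir3072 (2.36), and Mir99a and Mirlet7c-1 (2.09). It was narrowest for Mir127 and Mir434 (0.03), Mir191 and Mir425 (0.05), and Mir543 and Mir495 (0.06). The inequality of mean CPM within the Mir132 and Mir212 pair was 41.3-fold. The median over the 67 pairs was 3.70-fold, and 7 pairs, including this one, were at least as unequal.

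**Figure D4:**
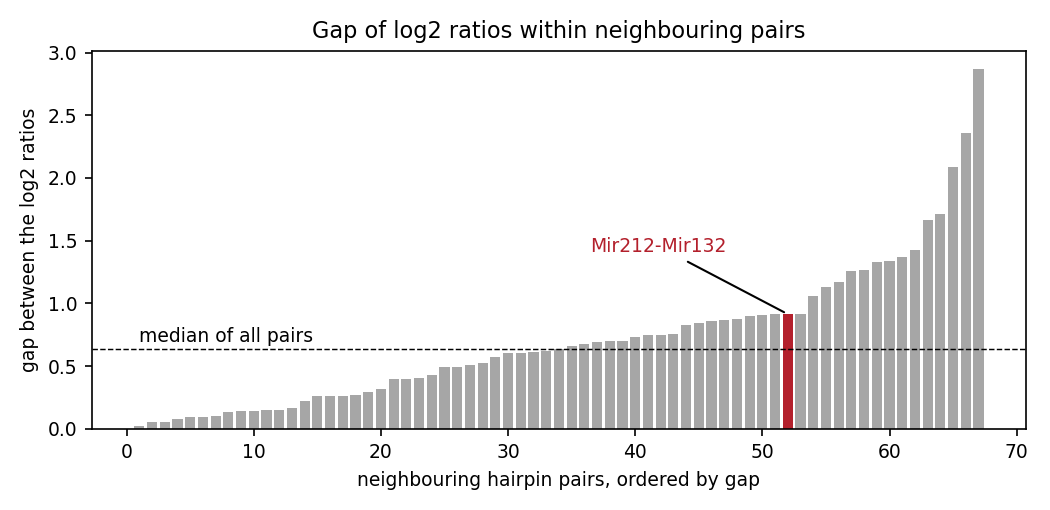
Gap between the log2 ratios (mouse 2 over mouse 1) of the genes in each of 67 neighbouring hairpin pairs, ordered from small to large, with a dashed line at the median of 0.64. The red bar is Mir212 with Mir132, at 0.91; 16 pairs, itself included, reach at least that gap.

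Other microRNAs known from neuronal activity or synaptic plasticity did not share one direction. The list holds Mir132, Mir212, Mir134, Mir138-1, Mir138-2, Mir188, Mir329, Mir381 and Mir485. All 9 genes passed the exact test alone, which 74.7% of all genes did, and Mir132 was the only one also past 2-fold (1 of 9, higher in mouse 2, against 14.2% of all genes). Higher in mouse 2 were 5 genes and higher in mouse 1 were 4, and the list's median log2 ratio was 0.16, against -0.0038 over all 324 genes.

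Mir381, a gene of the imprinted Dlk1-Dio3 domain, came closest to Mir132. It had 964 CPM in mouse 2, against 477 CPM in mouse 1, a log2 ratio of 0.97, which became 1.01, past 2-fold, with the libraries scaled by total sense counts and 0.61 with the trend on G and C content removed. Mir329, of the same domain, had 386 CPM in mouse 2, against 219 CPM in mouse 1, a log2 ratio of 0.77, or 0.47 with that trend removed. Mir138-1 had 5139 CPM in mouse 2, against 3633 CPM in mouse 1, a log2 ratio of 0.45. Both of these lay under 2-fold.

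The remaining genes had lower CPM in mouse 2. Among them, Mir134 and Mir485 lie in the Dlk1-Dio3 domain, as Mir381 and Mir329 do, so the domain's genes on the list went in both directions. Mir134, which is known to act at dendritic spines, had 358 CPM in mouse 2, against 478 CPM in mouse 1, a log2 ratio of -0.47. Mir485 had 2785 CPM in mouse 2, against 3750 CPM in mouse 1 (-0.48), and Mir188 had 173 CPM in mouse 2, against 222 CPM in mouse 1 (-0.40). Mir138-2, a second copy of the Mir138 gene, had 2188 CPM in mouse 2, against 3203 CPM in mouse 1 (-0.60). Reads that fit both Mir138-1 and Mir138-2 would enter no gene, so neither value covers them.

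Mir132 made up most of the list's level, 83.1% in mouse 2 and 69.6% in mouse 1. The other 8 genes summed to 13222 CPM in mouse 2, against 13048 CPM in mouse 1. Without Mir132, the summed level of the list was thus nearly equal in the mice. The genes in that sum differed in both directions, and each passed the exact test alone. Among the most abundant of them, Mir138-1 was higher in mouse 2, while Mir138-2 and Mir485 were lower.

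The marker lists give the levels, beside Mir132, of microRNAs known from different cell types. In bulk tissue, fewer cells of a type and less RNA per cell cannot be told apart. The 18 neuron-enriched genes, which include Mir138-1 and Mir138-2, summed to 45560 CPM in mouse 2, against 41694 CPM in mouse 1. Of the 14 that were tested, 8 were higher in mouse 2 and 6 in mouse 1, with a median log2 ratio of 0.02. None was past 2-fold, while 19.4% of all genes passed the test and 2-fold. Of the genes so counted, Mir9-1, at 35 counts in each mouse, did not pass the exact test alone. Nor did Mir218-1, at 66 counts in mouse 2, against 89 in mouse 1. The neuronal Mir124a-1, Mir124a-2 and Mir124a-3 had 4 counts or fewer in each mouse, close to the 3 counts that a count of 0 allows. They are copies, whose reads can fit several places and then enter no gene. Other genes of the list are numbered copies too, as Mir138-1 and Mir138-2 are, so its sum and median may leave such reads out. How many reads this concerns was not tested.

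The 5 tested vessel and oligodendrocyte markers were higher in mouse 2, as Mir132 was. The endothelial list, in effect Mir126a with Mir126b at 0, had 22380 CPM in mouse 2, against 11276 CPM in mouse 1. The 3 mural genes summed to 9464 CPM in mouse 2, against 4589 CPM in mouse 1, with Mir145b at 0. The 4 oligodendrocyte genes summed to 5128 CPM in mouse 2, against 2756 CPM in mouse 1, with Mir219b at 0. Mir219a-1, too low to be tested, had 17 counts in mouse 2, against 18 in mouse 1. Of the 5 tested genes in these 3 lists, Mir143 was the only one past the exact test and 2-fold (log2 ratio 1.00). Of all genes, 14.2% passed both as higher in mouse 2. With DESeq2 size factors Mir143 lay just under 2-fold (0.999).

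The erythroid markers ran the other way, with all 3 tested genes lower in mouse 2. The 4 erythroid genes summed to 153 CPM in mouse 2, against 742 CPM in mouse 1, with Mir451b at 0. Mir144 (-1.40) and Mir451a (-2.70) passed the test and 2-fold as higher in mouse 1, which 5.25% of all genes did. The 5 microglia and leukocyte genes summed to 1472 CPM in mouse 2, against 1640 CPM in mouse 1. Most of that sum was Mir150, at 1264 CPM in mouse 2, against 1531 CPM in mouse 1. Of the 3 tested genes of that list, 2 were higher in mouse 2, although Mir155 (log2 ratio 0.06) did not pass the exact test alone. Mir142 (log2 ratio 1.46) was the only one past the test and 2-fold, which 14.2% of all genes passed as higher in mouse 2. Mir142b was at 0. The 7 choroid plexus and epithelium genes summed to 693 CPM in mouse 2, against 748 CPM in mouse 1. Mir204, most of that sum, had a log2 ratio of -0.03 and Mir429 had 0.40. Of the 4 tested genes, Mir200b (-1.89) was the only one past the test and 2-fold, against 5.25% of all genes past both as higher in mouse 1. The part of any of these lists in the difference of Mir132 was not tested.

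**Figure D5:**
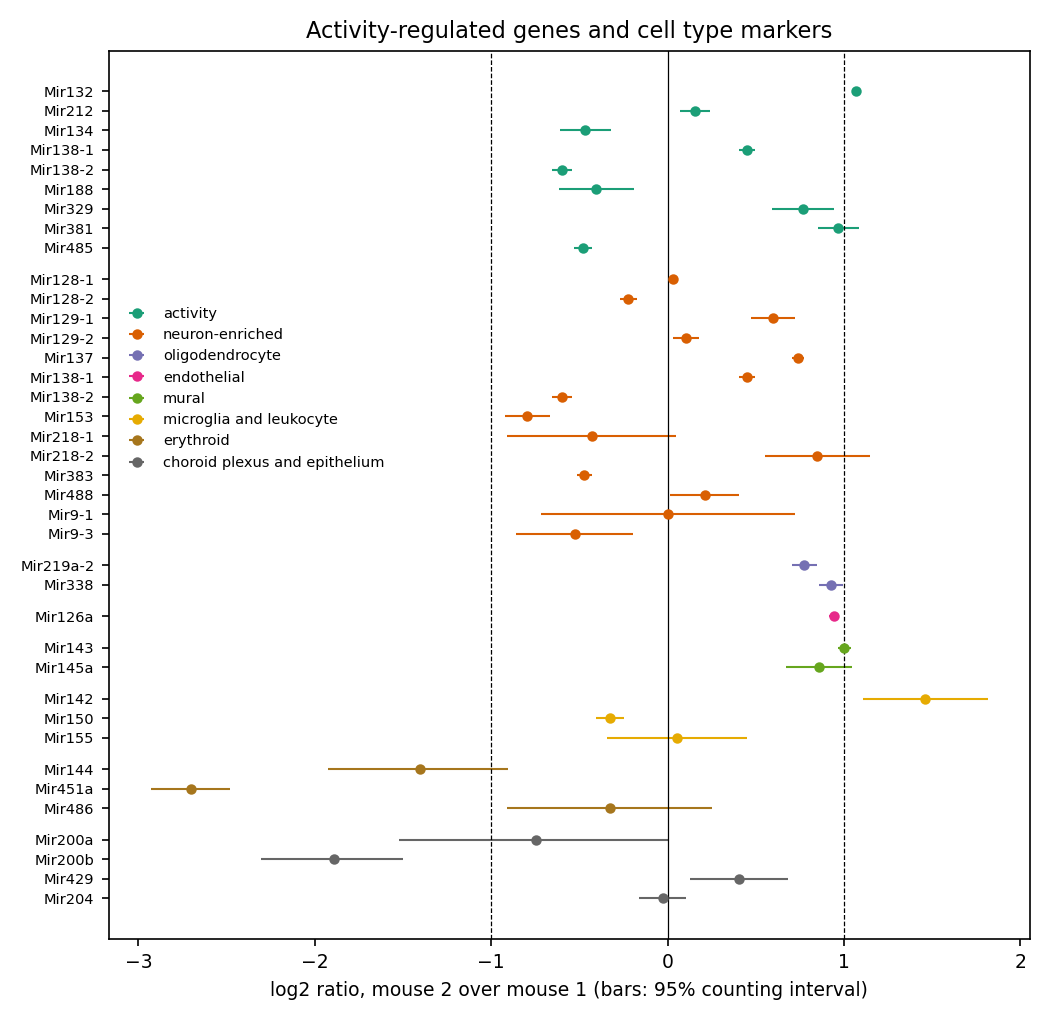
Log2 ratio of mouse 2 over mouse 1 (points) with 95% counting intervals (bars) for the tested genes of the activity-regulated list and of 7 marker lists, coloured by list, with dashed lines at 2-fold. Mir132 (1.07) stands to the right of every other activity-regulated gene; Mir126a (0.94) and Mir143 (1.00) stand near it, and Mir451a (-2.70) is furthest to the left.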

How the data were processed

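The authors deposited whole-number read counts per microRNA gene for each library, in a table without a header that has 3 count columns. They use mm10 and GENCODE M21, per the labels' README notes; the aligner, counter and adapter trimming are not given in the sources used here. No source names the columns. They were read as unstranded, sense and antisense counts, because most assigned reads stand in the second, which was used. All 2202 genes matched M21. The first 4 lines name no gene and were left out: unmapped reads (27.3% of reads in mouse 2, 32.1% in mouse 1), reads at several places (37.2% in mouse 2, 34.6% in mouse 1), reads in no gene (5.63% in mouse 2, 6.11% in mouse 1, sense column) and ambiguous reads (0 in the sense column). Reads from CAST alleles that differ from mm10 may have been lost.

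CPM was computed over sense counts (Python 3.11.15). Genes at a mean of 10 CPM or more were compared between the mice with a two-sided exact binomial test on library sizes scaled by TMM (edgeR 4.0.16), adjusted by Benjamini-Hochberg, with a threshold of 0.05 and 2-fold. It covers counting error only, and with 1 library per mouse a quasi-likelihood test had no residual degrees of freedom. The chi-square of the counts was 244.7 per degree of freedom, so the libraries were not 1 library deposited as 2. DESeq2 1.42.0 gave alternative size factors. Hairpins were folded with RNAfold 2.7.2. The exact test was tested on simulated data that held counting error only. That simulation had no spread between mice, so it cannot show how the test performs on these libraries.

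Members, lists and tests were chosen with earlier results of these data known. Genes named were both members, the 3 genes on either side in mean CPM and the 5 nearest in log2 ratio at 1000 CPM or more. Named too were the activity-regulated list, the 3 widest and 3 narrowest pairs, and genes with a 16-base run of a mature strand. Marker genes were named where they were at 0, passed the test and 2-fold, stand alone in their list, or, after their values were seen, where they made up or went against a sum (Mir150, Mir204, Mir429). Alternatives were other library sizes, columns, filters, folds, pair distances, hairpin length, G and C content, and each mouse left out.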

Additional observations from a re-analysis of the deposited data

How the results depend on the processing

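The log2 ratio of Mir132 stayed positive and past the test and 2-fold under all 7 alternatives (1.07 to 1.12), and that of Mir212 stayed positive and under 2-fold (0.15 to 0.47, the highest with the G and C trend removed). The totals without Mir132 and Mir139 and, for pairs, the G and C trend were settings chosen after the data were seen, as was Mir139 in place of Mir212 in the odds ratio, which gave 3.10. Without replicate 1 or 2 the level of Mir132 was 29894 to 64860 CPM, that of Mir212 1066 to 1228 CPM, and their ratio 28.0 to 52.8. The level of Mir212 was 952 CPM with the reads in no gene added to the total and 1291 CPM without Mir139. At a minimum of 100 CPM, which leaves fewer genes, 27 genes passed as higher in mouse 2, with 9 as higher in mouse 1. At 1.5-fold, 81 were higher in mouse 2, with 57 in mouse 1. With the G and C trend removed, 38 were higher in mouse 2, with 29 in mouse 1. Of the activity-regulated genes, 2 passed, higher in mouse 2, with total counts and in the unstranded column. The share of pairs with a gap as large was 42.3% at a minimum of 1000 CPM and 44.8% with the G and C trend removed. Reversed were Mir1839 (-0.30) and Mir760 (0.20) with the G and C trend removed, and Mirlet7i with total counts (0.022), in the unstranded column (0.016) and with totals without Mir132 and Mir139 (0.015). The cause was not tested. No paired analysis was possible because the mice form 1 group.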
